A study of Mus musculus with 4 samples.

Results

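In 2 mouse lung sections, spots were ranked by a 7-gene hypoxia score among those richest in carcinoma transcripts. Those with the highest and with the lowest share of score transcripts were compared. Carcinoma spots were those at or above the 75th percentile of their section by the share of transcripts from Csf3, Mmp3, Plau, Fscn1, Hmga2, Tns4 and Wnt7b, among spots with over 200 genes. Among these, the score was the share of transcripts from Car9, Ndrg1, Slc2a1, Pdk1, Egln3, Adm and Vegfa, and the members were chosen by this score: its top 25% (score-high) were set against its bottom 25% (score-low). This gave 107 score-high and 107 score-low spots of 425 carcinoma spots in the lung of mouse A (lung A), and 174 of each among 695 in the lung of mouse B (lung B), where A is the animal with the lower number in the labels. The 562 spots of both classes belong to 9339 spots kept over all 4 sections of the series. Because the classes were cut on measured transcripts of these same spots, the 14 genes of both rules are given below as a description only and were left out of every count of changed genes. Lung A did not bear out a name such as hypoxic for its top 25%, since HIF-responsive genes outside the score were level there, so the classes are called by the score throughout.

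Both animals were BALB/c mice that received 100000 cells of the 4T1 line, a mammary carcinoma line derived from that strain, in the mammary fat pad at 8 weeks of age. After 28 days the primary tumour and the lung of each were fixed, embedded in paraffin and cut at 4 µm for Visium, a slide assay in which probe pairs against each gene are captured on barcoded spots and counted by unique molecular identifiers (UMIs). Each spot covers a patch of tissue with cells of mixed kinds, and spots of 1 section are not replicates, so that each comparison rests on n = 2 mice. All sections carried tumour cells and none came from an untreated mouse, and histological outlines of metastatic foci were not used here.

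Cells short of oxygen keep the transcription factor subunit HIF-1α, which prolyl hydroxylases otherwise mark for destruction by the VHL ubiquitin ligase. Together with its partner ARNT it binds a short core motif at its target genes. These targets raise glucose uptake and glycolysis, buffer pH through carbonic anhydrases, change collagen cross-linking and mitophagy, and call in vessels through VEGF-A. In growing carcinoma such a program is known from tissue distant from perfused vessels.

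The sections differed in tumour burden. The lungs held 11122812 UMIs in 1697 kept spots of mouse A and 30240176 UMIs in 2780 kept spots of mouse B, with medians of 6555 and 9175 UMIs per spot. Because the same top 25% was taken in each section, the carcinoma limit lay at 2.27 rule UMIs per 10000 in lung A and at 19.7 in lung B, and 16 spots of lung A reached the limit of lung B. The selected spots of lung A thus held far more lung tissue: surfactant and other alveolar type 2 genes took 11899 CPM (UMIs per 1000000 of a sum) of its score-low sum against 4628 CPM in lung B, and neutrophil genes 73728 against 10844 CPM. The name carcinoma spots therefore stands for the cut, not for outlined tumour. In lung A the 7 selection genes were summed to 555 (score-low) and 698 CPM (score-high). They stood at 47.9 CPM in the other spots of lung A and at 840 CPM in those of lung B. Alveolar type 2 genes stood at 12887 CPM in the other spots of lung A. The array positions are the same on every slide, and 1458 spot barcodes were kept in both lungs without sharing cells.

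Inside and outside the limits the spots formed a continuum. The lowest score-high spot had 8.05 score UMIs per 10000 in lung A and 10.8 in lung B, next to 8.03 and 10.8 in the highest spots left outside. The highest score-low spot had 3.28 and 4.24, next to 3.35 and 4.28 outside. Median scores of score-low and score-high spots were 1.61 and 10.7 per 10000 in lung A, and 3.26 and 19.98 in lung B. Behind the medians stood 1 and 5 score UMIs per spot in lung A, against 5 and 32 in lung B, and 40 carcinoma spots of lung A and 9 of lung B had none. Over each whole section, median UMIs per spot were close between classes. They were 4726 (score-low) and 4070 (score-high) in lung A, and 15722 and 17029 in lung B. Score-low spots of lung B were deeper both inside its largest patch of touching carcinoma spots (medians of 25119 and 18187) and outside it (13009 and 9195).

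**Figure D1:**
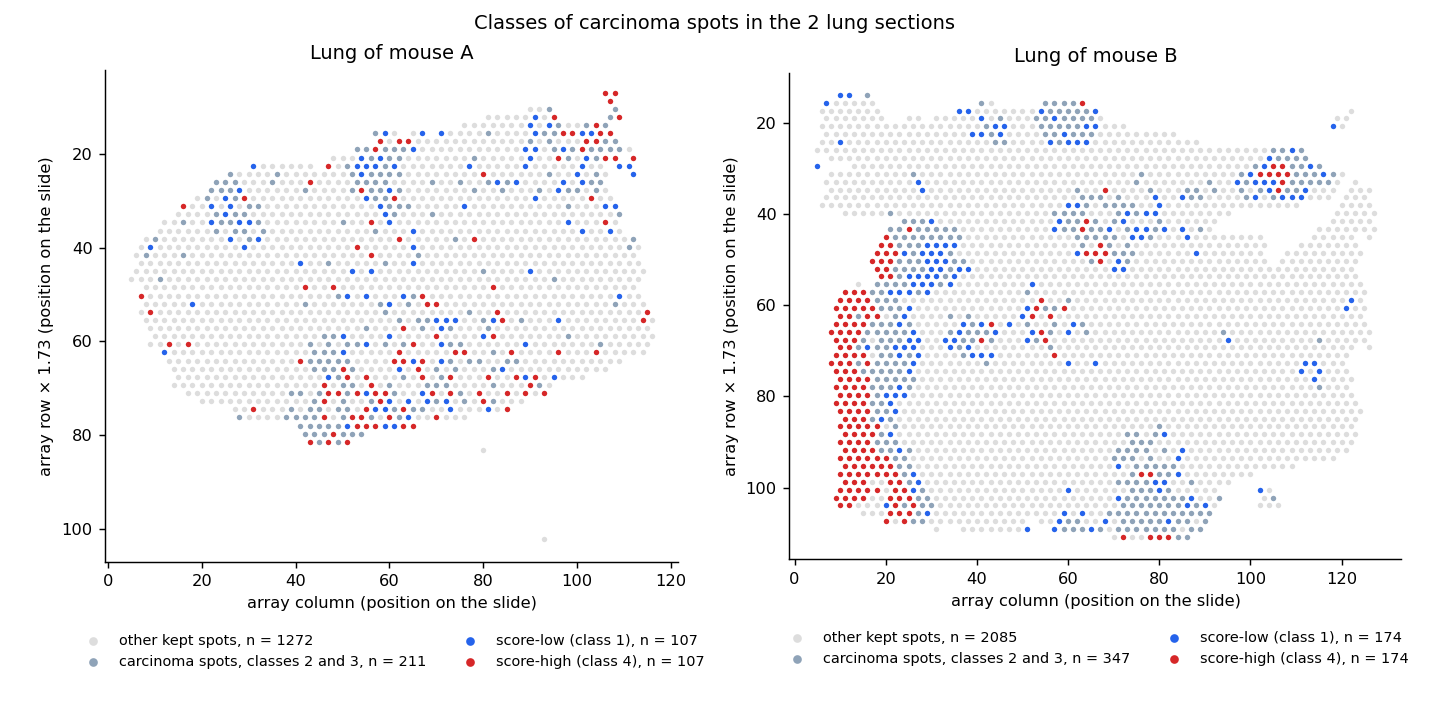
Position of kept spots in both lung sections (axes are array columns and rows; each point is 1 spot, coloured by class). In lung B score-high spots form a band along 1 side of the section, with a median array column of 15 against 51 for score-low spots, while in lung A both classes have a median column of 65.

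The genes that made the score were not the same in the 2 lungs. Car9, the cell-surface carbonic anhydrase IX, stood at 14.1 CPM (score-low) and 804 CPM (score-high) in lung B, and gave 32.7% of its score-high score. In lung A Car9 had 1 UMI in each class, or 1.66 and 1.92 CPM with exact 95% Poisson intervals of 0.0420 to 9.24 and 0.0487 to 10.7, which cover counting error only. The highest class of lung A thus held no detectable excess of Car9 over its lowest at this depth. There the score was made by Vegfa, the angiogenic growth factor, which stood at 91.2 and 538 CPM and gave 50.5% of the score-high score, against 5.77% in lung B, where Vegfa stood at 32.3 and 142 CPM. Spots outside the carcinoma class in lung A held Vegfa at 313 CPM.

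The other score genes were ordered alike in both mice, as the rule requires of their sum. Egln3, a HIF prolyl hydroxylase that is itself a HIF target, stood at 16.6 and 156 CPM in lung A and at 88.2 and 554 CPM in lung B. Slc2a1, the glucose transporter GLUT1, stood at 56.4 and 265 CPM and at 126 and 513 CPM. Pdk1, the kinase that restrains pyruvate dehydrogenase, stood at 13.3 and 44.2 CPM and at 26.1 and 231 CPM. All 3 were highest in score-high spots of lung B. Ndrg1, a stress-induced gene, stood at 4.97 and 42.3 CPM and at 18.9 and 171 CPM. Adm, the vessel-relaxing peptide adrenomedullin, had 0 and 9 UMIs in lung A and stood at 9.61 and 46.5 CPM in lung B.

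**Figure D2:**
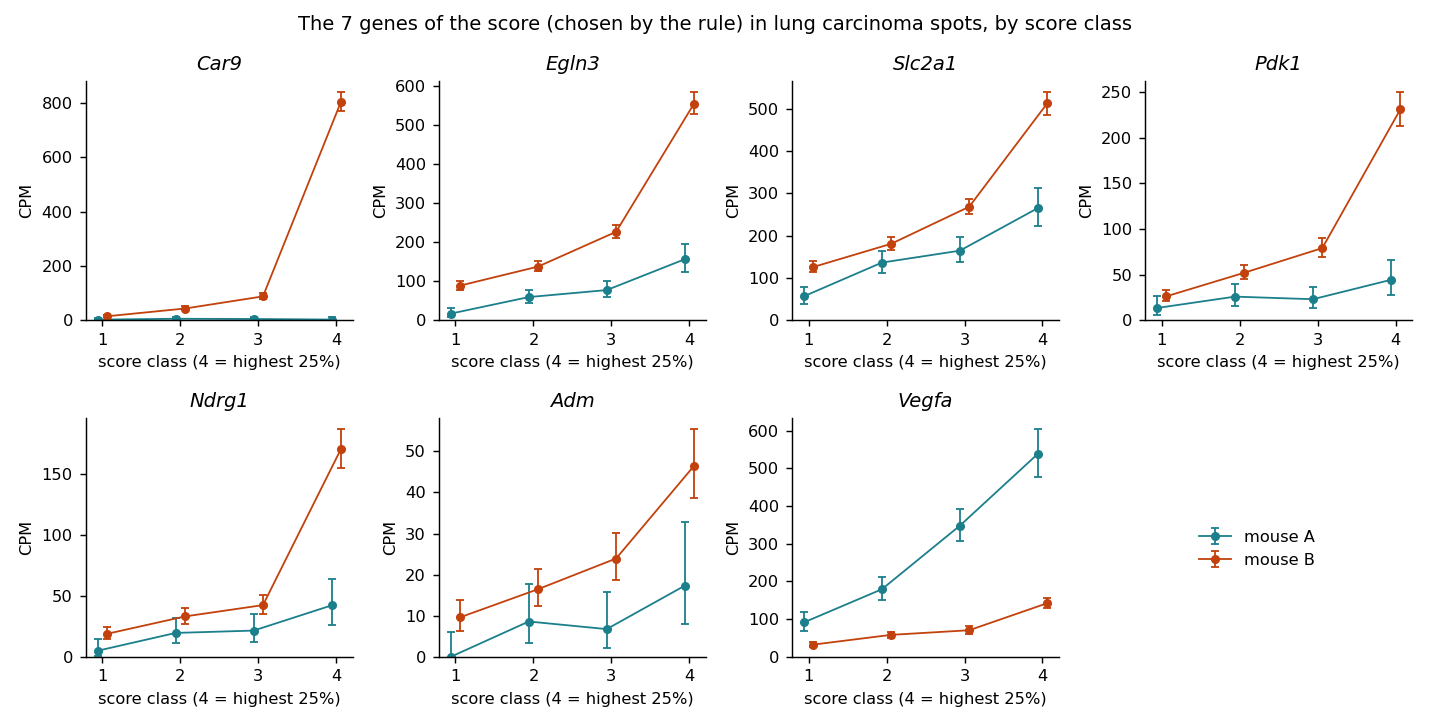
Level of each score gene (CPM of UMIs summed over the spots of a class; bars are exact 95% Poisson intervals of counting) in score classes 1 to 4, each holding 25% of the carcinoma spots. The genes are ordered by the rule; Car9 ends at 804 CPM in lung B and 1.92 CPM in lung A, and Vegfa at 142 and 538 CPM.

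The 7 genes that selected carcinoma spots were summed to 555 CPM in score-low and 698 CPM in score-high spots of lung A, and to 2594 and 3000 CPM in lung B. The share of these genes thus differed 1.26-fold and 1.16-fold between the classes, far less than the score. Mmp3, the matrix metalloproteinase stromelysin 1, stood at 114 and 115 CPM in lung A and at 828 and 898 CPM in lung B. Csf3, which encodes the granulocyte growth factor G-CSF, stood at 11.6 and 26.9 CPM and at 278 and 302 CPM. Epithelial carcinoma genes outside the rule, such as Krt7, were summed to 1026 and 1168 CPM and to 1838 and 2266 CPM.

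HIF-responsive genes outside the score served as the check of what the classes hold. In lung B their summed level ran over the 4 score classes, each of 25% of the carcinoma spots, from lowest to highest, at 2396, 2668, 3021 and 5181 CPM, a 2.16-fold difference between the ends with most of it in the last step. In lung A it ran at 1716, 1779, 1838 and 1716 CPM and did not differ between the ends. Of 29 such genes tested, 25 were higher in score-high spots of lung B, 18 of them by a log2 fold change of 1 or more, a size that 1.97% of all 11102 genes tested reached in that lung. In lung A 14 of the 29 were higher and 2 reached that size, beside 5.22% of all genes. All 14 higher in lung A were higher in lung B too, and 27% of all genes were higher in both. Median log2 fold changes were 1.13 in lung B and -0.02 in lung A, beside 0.00 over all genes in each.

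**Figure D3:**
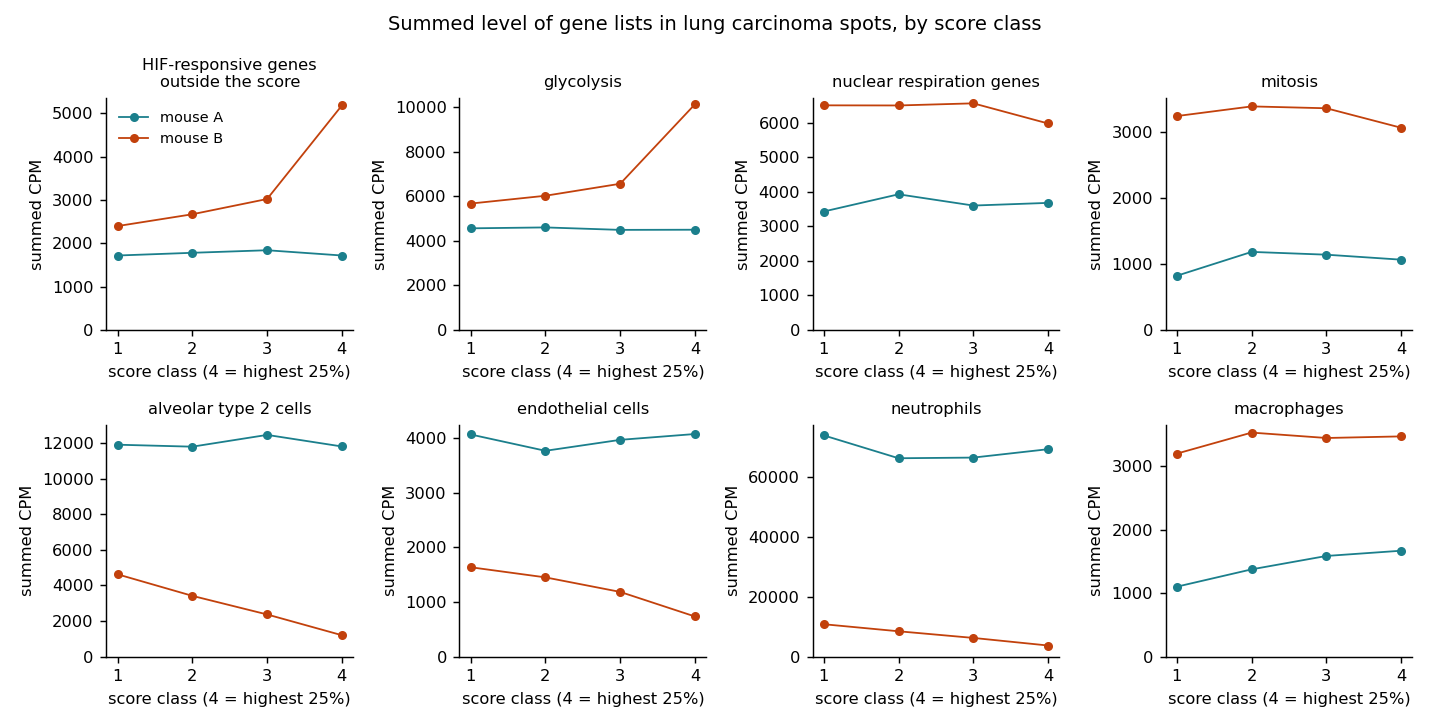
Summed level (CPM) of 8 gene lists over score classes 1 to 4 in lung carcinoma spots, 1 line per mouse. In lung B HIF-responsive genes outside the score and glycolysis genes stand highest in class 4 (5181 and 10130 CPM) while alveolar, endothelial and neutrophil genes stand lower in each further class; in lung A the first 2 lists end at 1716 and 4495 CPM.

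Across both mice the fit called few genes. edgeR's quasi-likelihood test with the mouse as a block and Benjamini-Hochberg adjustment called 16 of 11102 genes (0.144%), 6 higher (0.054%) and 10 lower (0.0901%) in score-high spots, while 918 had an unadjusted p under 0.05. The number depended on the settings and ran from 0 without the block and 1 with DESeq2 to 228 when Vegfa was left out of the score. The split turned too, with 36 higher and 19 lower within bins of alveolar share, 57 and 36 with all 4 score classes in the fit and 19 and 15 within bins of carcinoma share, against 41 and 187 without Vegfa. Over 8435 genes with a mean of at least 20 CPM the log2 fold changes of the 2 lungs had a Pearson r of 0.10, a description across genes, which are not independent replicates.

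Bnip3, a mitophagy receptor of the outer mitochondrial membrane and a known HIF target, was the called gene with the largest increase. It stood at 8.29 and 9.61 CPM in score-low and score-high spots of lung A, from 5 UMIs each, and at 12.0 and 99.3 CPM in lung B. The difference thus came from lung B, where the level stayed at 12.0, 13.2 and 17.9 CPM over the first 3 score classes. The fitted log2 fold change was 2.67 ± 0.41 (SE, n = 2 mice; edgeR adjusted p = 0.00244), with 0.18 and 3.02 in the single lungs. Here and below the SE comes from the fit, which shares its estimate of spread over genes. It does not measure the spread of the 2 mice, which was far wider for Bnip3.

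Plod2 was a called increase that was higher in each lung. Plod2, the lysyl hydroxylase of collagen telopeptides and a HIF target, stood at 11.6 and 24.98 CPM in lung A and at 57.0 and 193 CPM in lung B. Its log2 fold change was 1.66 ± 0.25 (SE, n = 2 mice; edgeR adjusted p = 0.00194), with 1.06 and 1.76 in the single lungs. Counting intervals of both classes overlapped in lung A for Plod2 (4.67 to 23.9 and 13.3 to 42.7 CPM).

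Another 3 called increases rested on lung B alone. Eno2, the neuronal enolase of glycolysis, stood at 19.9 and 98.9 CPM there and at 8.29 and 5.77 CPM in lung A, from 5 and 3 UMIs with counting intervals that overlapped. Its fitted log2 fold change was 2.02 ± 0.38 (SE, n = 2 mice; edgeR adjusted p = 0.0217). Fbln2, the matrix protein fibulin 2, stood at 180 and 694 CPM in lung B and at 13.3 and 13.5 CPM in lung A. Prss22, a secreted serine protease, stood at 15.8 and 94.8 CPM in lung B and had 2 and 1 UMIs in lung A. Fbln2 and Prss22 had TMM-scaled log2 fold changes of -0.0079 and -0.74 in lung A, lie outside the rule for named genes and were named after their values were seen, with fitted log2 fold changes of 1.71 and 2.43.

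The 7 further increases with the smallest p that went the same way in both lungs did not pass. They included Hilpda, an inhibitor of fat breakdown and a HIF target, at 41.4 and 94.2 CPM in lung A and 15.1 and 40.9 CPM in lung B, with a fitted log2 fold change of 1.32 ± 0.28 (SE; edgeR adjusted p = 0.0538). Hilpda thus had a difference of like size in both lungs. P4ha1, the collagen prolyl 4-hydroxylase subunit, stood at 79.6 and 94.2 CPM and at 109 and 333 CPM (edgeR adjusted p = 0.0855). The others were Parp16, Il23a (the p19 subunit of interleukin 23), Trappc6a, Gpa33 and Tnfsf9 (the ligand of 4-1BB), with fitted log2 fold changes of 1.21, 1.51, 1.20, 1.51 and 1.57. In lung A these rested on few UMIs, with 1 and 4 in score-low and score-high spots for Il23a and for Tnfsf9, 0 and 5 for Gpa33, 11 and 14 for Parp16 and 16 and 27 for Trappc6a. Without lung A the log2 fold change of Parp16 was 1.37, and without lung B it was 0.53.

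Some HIF-responsive genes had large differences in lung B and lower levels in score-high spots of lung A, where the counting intervals of the classes overlapped for both genes given here. Ero1l, an oxidase of the endoplasmic reticulum, stood at 43.6 and 176 CPM in lung B and at 26.5 and 13.5 CPM in lung A. Fam162a, a mitochondrial HIF target, stood at 129 and 360 CPM and at 61.3 and 38.4 CPM. Neither passed the edgeR test (adjusted p = 0.158 and 0.346). Mif, a cytokine and the most abundant of the list, stood at 813 and 1605 CPM in lung B and at 138 in both classes of lung A. Pfkfb3, Pfkfb4, Plin2 and Angptl4 were the 4 members without a higher level in lung B, and they were lower in lung A too, with fitted log2 fold changes of -0.40, -0.37, -0.11 and -0.51.

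**Figure D4:**
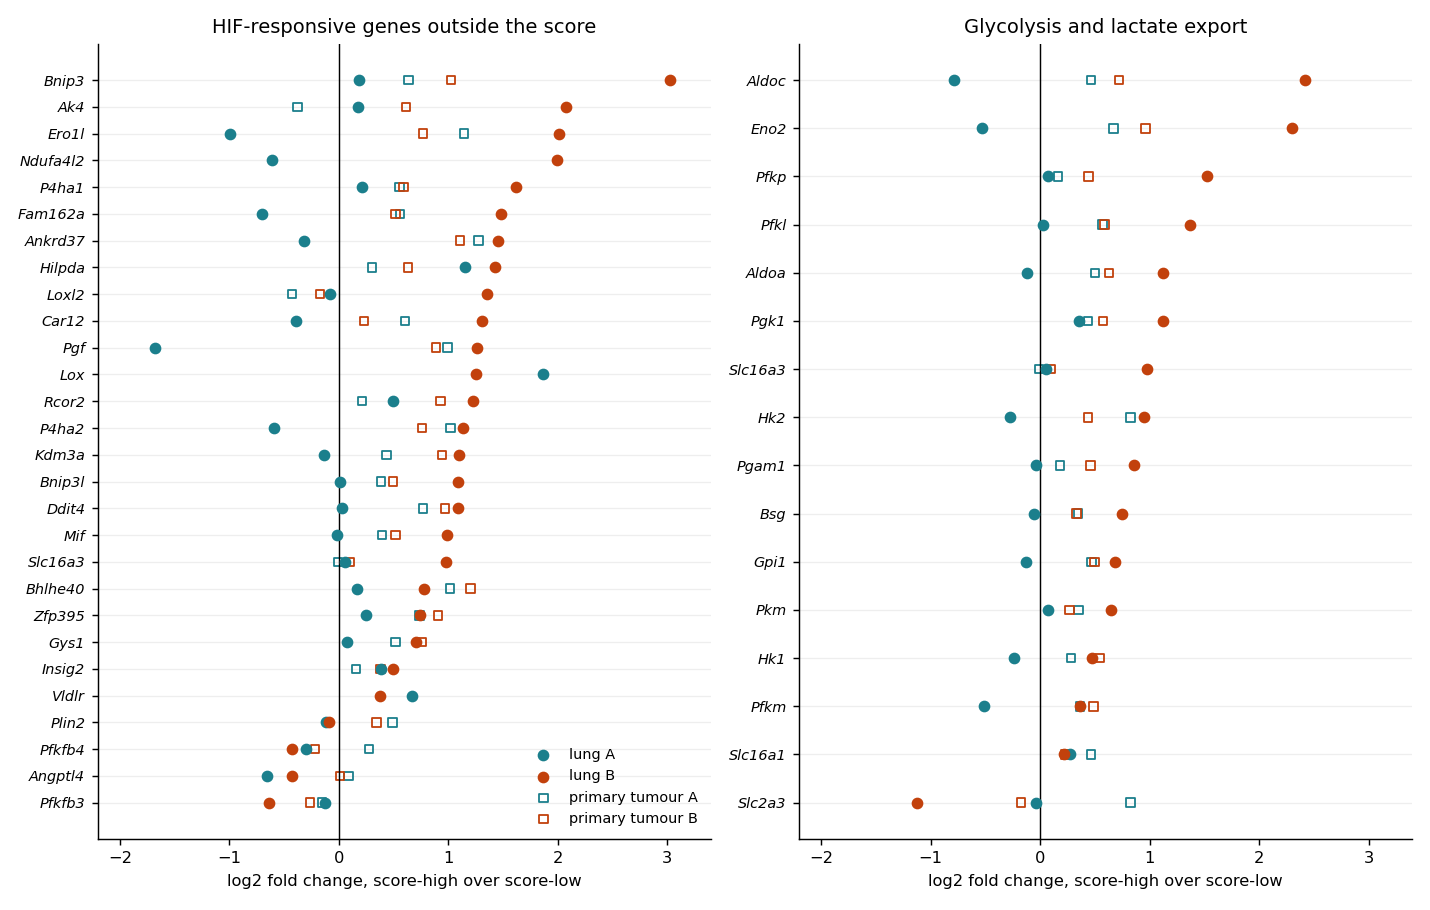
Log2 fold change, score-high over score-low, of HIF-responsive genes outside the score (28 shown) and of glycolysis genes (16 shown), 1 row per gene; filled circles are the 2 lungs and open squares the 2 primary tumours, where tested. Lung B lies right of 0 for 24 and 15 of these genes, and lung A for 14 and 6.

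Glycolysis genes were divided in the same way. Their summed level over score classes 1 to 4 was 5669, 6020, 6559 and 10130 CPM in lung B and 4558, 4599, 4488 and 4495 CPM in lung A. In lung B 15 of 16 tested were higher and in lung A 6 of 16, beside 5580 and 5573 of all 11102 genes. The fit called 1 of them higher (Eno2), as it did 0.054% of all genes, with median log2 fold changes of 0.90 and -0.05. Aldoa, the muscle-type aldolase, stood at 885 and 1923 CPM in lung B and at 787 and 738 CPM in lung A. Pfkp and Pfkl, subunits of the phosphofructokinase that commits sugar to glycolysis, stood at 85.8 and 246 CPM and at 221 and 568 CPM in lung B, and at 68.0 and 73.0 CPM and 81.2 and 84.6 CPM in lung A. Pgk1, phosphoglycerate kinase 1, was higher in both (225 and 487 CPM in lung B, 89.5 and 117 CPM in lung A; edgeR adjusted p = 0.161). Slc2a3, the glucose transporter GLUT3, was the member lower in lung B, at 52.2 and 23.6 CPM, beside 340 and 338 CPM in lung A.

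Of genes of the HIF machinery none of 8 tested was called, where 0.144% of all genes were, so that nothing is read from this count. Hif1a, the oxygen-regulated subunit, whose control lies mostly in protein breakdown, stood at 174 and 160 CPM in lung A and at 238 and 198 CPM in lung B. Egln1, the main HIF prolyl hydroxylase and itself a HIF target, stood at 46.4 and 57.7 CPM and at 57.7 and 129 CPM (edgeR adjusted p = 0.209). Epas1, the HIF-2α subunit of vessels and alveolar cells, stood at 1408 and 1564 CPM in lung A and at 224 and 55.5 CPM in lung B. Arnt stood at 64.5 and 88.4 CPM and Vhl at 34.0 and 48.3 CPM in lung B.

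The promoters of called HIF-responsive genes were searched for the core motif ACGTG on both strands in the 250 bases before the start site (RefSeq, GRCm38.p6), which 18.5% of 27025 genes with such a window hold. Windows of 18 of the 33 HIF-responsive and glycolysis genes that were tested and have one (54.5%) and of 4 of 6 score genes held it. Bnip3 is shown since it had the largest called increase, and Car9 since it gave the largest part of the score in score-high spots of lung B, with motif matches in capitals. The Bnip3 stretch lies at chr7:138909557-138909706 (minus strand, bases -200 to -51 from the start site) and its 2 overlapping matches on both strands form a palindrome at -108 to -103. The Car9 stretch lies at chr4:43506996-43507025 (plus strand, bases -30 to -1) with a match at -18 to -14, and an Eno2 window held none. A match is a description of the letters and not a measured binding site.
Bnip3: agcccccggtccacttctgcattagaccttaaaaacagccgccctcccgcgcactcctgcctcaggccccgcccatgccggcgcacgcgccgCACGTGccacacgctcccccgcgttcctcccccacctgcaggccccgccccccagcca
Car9: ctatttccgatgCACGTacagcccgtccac

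All 10 called decreases went the same way in both lungs. Retnla, a secreted resistin-like protein of alternatively activated macrophages and lung epithelium, stood at 4622 and 980 CPM in lung A and at 805 and 161 CPM in lung B. Its log2 fold change was -2.29 ± 0.21 (SE, n = 2 mice; edgeR adjusted p = 2.44e-06). Few spots carried much of it: 3 score-low spots held 1994 of the 2788 score-low UMIs of lung A and 3 held 654 of 2346 in lung B. Without those spots, an alternative added after the data were seen, the log2 fold change of Retnla was -1.21 and passed the test, and with spots thinned to 3000 UMIs it was -0.43 and did not pass.

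Another 4 called decreases were Dpt, Eln, Heyl and Gas6. Dpt, the fibroblast matrix protein dermatopontin, stood at 109 and 36.5 CPM in lung A and at 46.0 and 7.87 CPM in lung B, with a fitted log2 fold change of -2.11 ± 0.31 (SE, n = 2 mice; edgeR adjusted p = 0.00133). Eln, elastin, stood at 297 and 161 CPM and at 155 and 44.2 CPM. Heyl, a Notch target of vessel walls, stood at 44.8 and 26.9 CPM and at 61.1 and 13.9 CPM. Gas6, the ligand of TAM receptors, stood at 219 and 125 CPM and at 84.1 and 25.1 CPM. Every one of these levels was lower in score-high spots of each lung, with fitted log2 fold changes of -1.39 (Eln), -1.68 (Heyl) and -1.31 (Gas6).

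The remaining 5 were chemokines, an interferon-induced gene and a cardiac gene. Ccl8, a monocyte-attracting chemokine, stood at 91.2 and 38.4 CPM in lung A and at 101 and 30.4 CPM in lung B, close to the same levels in both mice. Cxcl15, the lung chemokine lungkine and a marker of alveolar type 2 cells, stood at 816 and 542 CPM and at 185 and 51.7 CPM. Cxcl14 stood at 116 and 71.1 CPM and at 125 and 49.5 CPM. Gbp4, an interferon-induced guanylate-binding protein, stood at 129 and 74.9 CPM and at 132 and 48.3 CPM. Tnnt2, cardiac troponin T, stood at 149 and 96.1 CPM and at 134 and 50.2 CPM. Their fitted log2 fold changes ran from -1.57 (Ccl8) to -1.10 (Tnnt2). The call of Tnnt2 was lost under 11 of 15 alternatives. Its log2 fold change was -0.28 with classes cut within bins of carcinoma share and -0.70 without spots rich in cardiac genes. Within bins of alveolar share it was -1.40 and passed the test.

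Markers of other cell types moved with the score in lung B, where all 10 tested alveolar type 2 genes were lower in score-high spots, as were 21 of 22 endothelial and 16 of 17 neutrophil genes. By a log2 fold change of -1 or less, 7 of the alveolar type 2, 12 of the endothelial and 12 of the neutrophil genes were lower in lung B, where 7.89% of all genes were, and 0 of each in lung A, where 4.76% were, with no gene of these lists at 0 UMIs in either class. Alveolar type 2 genes were summed to 4628 and 1210 CPM there and to 11899 and 11799 CPM in lung A. Sftpc, surfactant protein C, stood at 3556 and 794 CPM in lung B and at 9098 and 9238 CPM in lung A. Lung A thus held its alveolar genes level over the score. Endothelial genes were summed to 1636 and 736 CPM in lung B, with Plvap, a protein of vessel fenestrae, at 246 and 99.7 CPM, and to 4062 and 4070 CPM in lung A. Neutrophil genes were summed to 10844 and 3755 CPM, with the alarmin S100a9 at 3946 and 1204 CPM, and to 73728 and 69130 CPM in lung A. From summed UMIs, fewer cells of a type and less RNA per cell cannot be told apart. Their part in the contrast was not tested. The classes were also cut within 5 bins of alveolar share, which used alveolar genes themselves and no endothelial or neutrophil genes. In that fit over both mice the median log2 fold change of alveolar type 2 genes was -0.10, against -0.92 in the fit as described. For HIF-responsive genes outside the score it was 0.75, against 0.86. Within these bins 5 of the 10 called decreases did not pass the test, with log2 fold changes of -0.56 for Ccl8, -0.43 for Cxcl15, -0.52 for Gbp4, -0.90 for Heyl and -0.73 for Gas6.

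Further lists of the lung and blood had lower sums in score-high spots of lung B, with fold differences that were smaller or, for alveolar type 1 genes, opposite in lung A. Airway genes were summed to 293 and 67.5 CPM in lung B (2313 and 2110 CPM in lung A), alveolar type 1 genes to 904 and 457 CPM (2866 and 3057 CPM) and cardiac muscle genes to 504 and 95.6 CPM (511 and 450 CPM). Red blood cell genes, whose globin members share near-identical copies, were summed to 393 and 194 CPM (2142 and 1908 CPM), and all 4 tested were lower in both lungs, as 26.6% of all genes were, without a call. Of these lists Tnnt2 was the only call. Genes of B and plasma cells were summed to 77.9 and 31.9 CPM (595 and 475 CPM), and those of T and NK cells to 80.7 and 43.9 CPM (275 and 200 CPM), with 5 of 17 at 0 UMIs in score-high spots of lung B.

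Genes of MHC class II were lower in both lungs for 6 of 7 members, as 26.6% of all genes were, without a call (0.0901% of all genes were called lower), summed to 2866 and 1676 CPM in lung A and to 1819 and 1332 CPM in lung B. Cd74, the invariant chain, stood at 2144 and 1261 CPM and at 1469 and 1114 CPM (edgeR adjusted p = 0.346). Interferon-induced genes of the fixed list were summed to 1040 and 886 CPM and to 1208 and 1066 CPM. Macrophage genes went apart: 14 of 16 were higher in score-high spots of lung A (1102 and 1668 CPM) and 5 of 16 in lung B (3195 and 3466 CPM). Spp1, osteopontin, stood at 128 and 361 CPM in lung A and at 893 and 1193 CPM in lung B (edgeR adjusted p = 0.198).

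The gene lists of cell division, respiration, stress, fibroblasts with matrix, mural cells and angiogenesis held no call, and with 0.144% of all genes called nothing is read from that. Mitotic genes were summed to 3250 and 3072 CPM in lung B and to 822 and 1067 CPM in lung A, replication genes to 2254 and 2107 CPM and to 494 and 613 CPM, with 20 and 19 tested. Nuclear genes of respiration were summed to 6508 and 5981 CPM in lung B and to 3430 and 3680 CPM in lung A. Genes of the amino acid and unfolded protein response were summed to 4929 and 5485 CPM in lung B and to 2263 and 2412 CPM in lung A, and immediate early and heat shock genes to 1889 and 2158 CPM and to 2011 and 1866 CPM. Fibroblast and matrix genes were summed to 6541 and 7897 CPM and to 4039 and 4182 CPM, where Fn1, fibronectin, stood at 1076 and 2276 CPM in lung B and at 610 and 930 CPM in lung A (edgeR adjusted p = 0.158). Mural genes were summed to 413 and 434 CPM and to 1049 and 609 CPM. Angiogenic ligands and tip cell genes were summed to 730 and 904 CPM and to 507 and 534 CPM.

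The classes differed in position in lung B. Score-high spots had a mean of 5.02 carcinoma spots among their 6 array neighbours against 3.53 for score-low spots, and 96 of 174 (55.2%) were enclosed by 6 against 37 of 174 (21.3%). Carcinoma neighbours of score-high spots were themselves score-high in 77.0% of pairs, and those of score-low spots in 4.88%. In lung A the means were 2.60 and 2.53, and 5.61% and 6.54% were enclosed. Carcinoma neighbours of score-high spots of lung A were score-high in 30.9% of pairs, and those of score-low spots in 20.7%. Mean steps to the nearest kept spot below the carcinoma limit were 1.39 (score-high) and 1.13 (score-low) in lung A. They were 2.88 and 1.35 in lung B. Among the top 10% by carcinoma share in lung B, the means of carcinoma neighbours were 3.67 (score-high) and 2.47 (score-low). There 5.71% of both classes were enclosed, and the mean steps to the nearest kept spot below that limit were 1.10 and 1.07. The difference in position was not tested.

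The score rose with the depth inside carcinoma patches in lung B, while few spots of lung A lay deep enough to compare. Depth was counted in spot steps to the nearest kept spot below the carcinoma limit. In lung B the median score was 5.18 per 10000 at 1 step (367 spots), 6.40 at 2, 7.93 at 3, 14.8 at 4 and 23.3 at 5 steps (26 spots). HIF-responsive genes outside the score stood at 2730 CPM at 1 step and at 5303 CPM at 5 steps. In lung A, where 354 of 425 carcinoma spots lay at 1 step, the median was 5.13 at 1 step and 5.54 at 2 steps (48 spots). It was 5.56 at 3 steps (16 spots) and ran from 8.28 to 14.5 at 4 to 7 steps. With 1 or 2 spots at each of the steps from 4 to 7, no trend is read from them. In the primary tumours the median score was 35.6 and 36.6 at 1 and 2 steps in mouse A. In mouse B it was 39.3, 43.9 and 35.6 at 1, 2 and 3 steps. Steps run toward kept spots only, so that a spot at the outer margin of the section can count as deep. In lung B the spots below the limit still held the selection genes at 840 CPM. The steps thus do not measure the distance to tumour-free tissue.

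**Figure D5:**
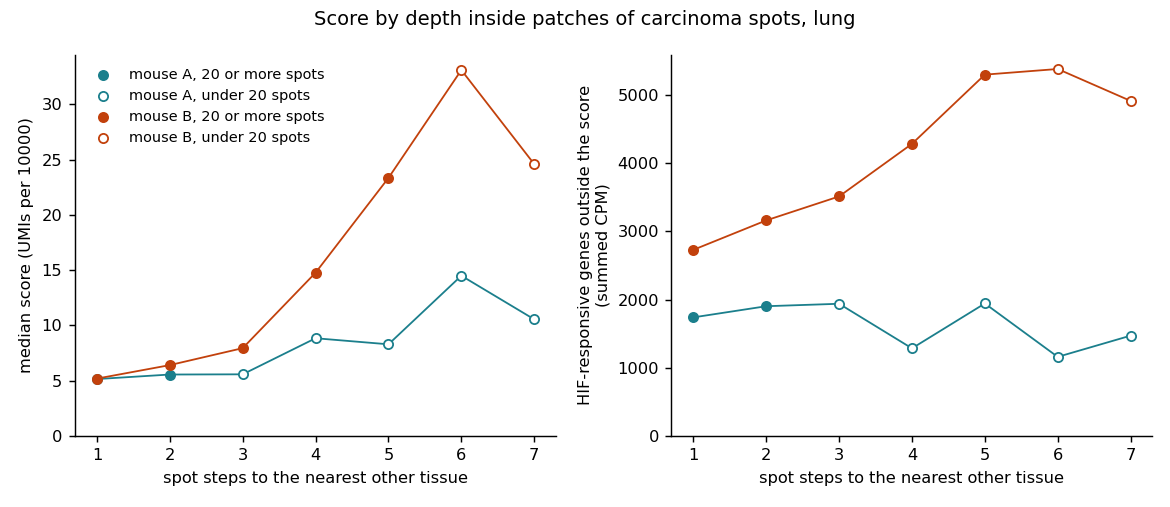
Median score (left, UMIs per 10000) and summed CPM of HIF-responsive genes outside the score (right) against spot steps, for each lung. Steps run from a carcinoma spot to the nearest kept spot below the carcinoma limit. Open circles stand for fewer than 20 spots. In lung B the median score is 5.18 at 1 step and 23.3 at 5 steps, while in lung A it is 5.13 and 5.54 at the 2 steps with 20 or more spots.

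Most score-high spots of lung B came from 1 patch. Of its 41 patches of touching carcinoma spots the largest had 317 spots and held 141 of the 174 score-high and 57 of the 174 score-low spots. Within it HIF-responsive genes outside the score stood at 2422 and 5436 CPM, Car9 at 18.3 and 888 CPM and Bnip3 at 16.1 and 105 CPM. In the other patches, with 33 score-high and 117 score-low spots, the same stood at 2372 and 3254 CPM, 10.3 and 173 CPM and 8.41 and 57.7 CPM. The order of the summed genes and of Bnip3 was thus kept outside the patch, with a smaller ratio for the summed genes but not for Bnip3, while the order of Car9 was set by the rule. Fitted without the patch, edgeR called 8 genes, 5 of them among the 16 called with it, and the median log2 fold change of HIF-responsive genes outside the score was 0.25. Among those that lost their call were Plod2 (log2 fold change of 1.01), Fbln2 (0.51), Eno2 (0.71), Heyl (-0.60), Ccl8 (-0.87), Eln (-0.78), Gbp4 (-0.55), Cxcl14 (-0.44) and Tnnt2 (-0.63), while Bnip3 and Prss22 were not tested there.

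The same rule in the primary tumours of these mice gave a contrast in which HIF-responsive genes were higher in both animals. Depth was not close between the classes there, where score-low and score-high spots had medians of 578 and 1890.5 UMIs (mouse A) and of 2055 and 6889 UMIs (mouse B), and its part in the contrast was not tested. There 26 HIF-responsive genes outside the score had median log2 fold changes of 0.50 (mouse A) and 0.60 (mouse B), and edgeR called 9 of them higher, where 0.41% of 9259 genes tested were called higher. Bnip3 stood at 138 and 205 CPM and at 118 and 232 CPM in the primary tumours of mice A and B, and Car9 at 530 and 1219 CPM and at 548 and 1330 CPM. Endothelial genes had median log2 fold changes of -0.35 and -0.92, and 2 of 3 red blood cell genes tested were called lower, where 0.0864% of genes were. The animals went opposite ways for these, with log2 fold changes of 0.11 and -1.17 for Hbb-bs and of 0.21 and -1.11 for Hba-a2 in mice A and B, so that the calls rested on mouse B. The interaction of class and tissue, which tests whether the lung contrast differed from that in the primary tumour, called 0 of 10603 genes by edgeR (590 with an unadjusted p under 0.05) and 0 by DESeq2 (56 unadjusted). Among genes named here, the adjusted p was smallest for Ccl8 (0.132), with a log2 fold change that differed by -1.96 ± 0.34 (SE, n = 2 mice) in the lung from that in the primary tumour.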

How the data were processed

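For every spot under tissue the authors deposited UMI counts of each gene, not normalized, and the spot's place on the array, from Space Ranger 2.0.0 (file headers) on mm10 (the submitters' processing notes). The 19465 genes held no mitochondrial-encoded gene, so that list was not analysed here. Of 11 shared symbols the gene with more UMIs kept the symbol. No doublet caller was run and no cell-type makeup estimated.

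Spots with over 200 genes were kept and classified per section as described above. UMIs were summed per section and class, and CPM is UMIs per 1000000 of a sum. Sums were tested in R 4.3.3 with edgeR 4.0.16 (TMM, filterByExpr, quasi-likelihood test, Benjamini-Hochberg, threshold 0.05), with the mouse as a block, since both classes of a mouse lie in 1 section. The 2 classes of a section deviated together (correlation 0.83 over genes of deviations from class means). The interaction fit used 8 sums with the section as a block. Log2 fold changes of single lungs use a prior count of 0.5. The SE is the size of the fitted log2 fold change divided by the square root of its F statistic. That statistic borrows spread over genes, with 18.9 prior degrees of freedom in the lung fit and 11.0 in the interaction. DESeq2 1.42.0, Python 3.11.15, numpy 2.4.6, scipy 1.17.1, pandas 2.3.3 and matplotlib 3.10.9 were also used.

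In the lung fit tested on simulated counts (17043 genes) 27% of genes changed 1.5-fold and 99% of genes changed 3-fold were recovered, with 13 unchanged genes called. In the interaction (19210 genes) these were 6%, 90% and 3. The simulated counts had a smaller spread (dispersion) than the fits estimated from the data, 0.025 for the lung and 0.014 for the interaction. Only genes with high counts were changed, by the same fold in both mice. The 2 lungs were far less alike than that, so these shares do not measure recovery in the data.

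Members, the 25 gene lists and tests were chosen with earlier results of these data known. Named were the 14 rule genes, the 10 largest called increases and decreases of the same sign in both mice with a mean of at least 20 CPM (filled up by smallest p), called and most abundant members of each list, and members of at least 20 CPM of the HIF-responsive, HIF machinery, glycolysis and red blood cell lists. Some genes that meet these rules are not reported here. Alternatives changed the block, tool, scaling, filter, cutoffs, bins, depth (thinning to 3000 UMIs), score genes and spots (cardiac genes over 0.5%, the largest patch of lung B, Retnla-rich spots, the last pair added after seeing the data).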

Additional observations from a re-analysis of the deposited data

Results flagged for a closer look

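Ccl8, a monocyte-attracting chemokine, was lower in score-high spots of both lungs (log2 fold changes of -1.27 and -1.72) and higher in those of both primary tumours (0.07 and 0.66). The difference between the tissues was -1.96 ± 0.34 (SE, n = 2 mice) and did not pass the interaction test (edgeR adjusted p = 0.132). In the primary tumour Ccl8 itself was not called (edgeR adjusted p = 0.570), and it stood at 71.5 and 71.8 CPM in mouse A and at 19.9 and 30.4 CPM in mouse B. The lung decrease did not pass the test under 8 of 15 alternatives. Its log2 fold change was -0.56 with classes cut within 5 bins of alveolar share, -1.30 within bins of total UMIs, -0.54 with spots thinned to 3000 UMIs, -0.87 with a score without Vegfa, -0.99 with a score of Car9, Ndrg1 and Egln3, -0.87 without the largest patch of lung B, -1.50 with no replicate block and -1.55 with DESeq2.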

How the results depend on the processing

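Against 16 called genes in the lung, the number was 0 with no replicate block, 1 with DESeq2 and 1 with classes cut within 5 bins of total UMIs, 3 with spots thinned to 3000 UMIs, 5 without spots rich in cardiac genes, 8 with a score of Car9, Ndrg1 and Egln3 and 8 without the largest patch of lung B. It was 21 with wider classes (142 and 232 spots each), 34 and 55 with classes cut within bins of carcinoma and of alveolar share, 93 with all 4 score classes in the fit, 165 in the top 10% by carcinoma share, 171 without TMM, 179 without a filter and 228 with a score without Vegfa. Without the Retnla-rich spots the number was 22, with 14 higher and 8 lower. The cause of these changes was not tested. For the difference from the primary tumour, 0 calls became 47 without a filter, 12, 11 and 3 within bins of alveolar share, carcinoma share and total UMIs, 3 in the top 10%, 4 without Vegfa and 8 without the patch. Without TMM the median log2 difference over all genes was 0.12. The count was 0 too with no replicate block, DESeq2, no TMM, wider classes, thinning, 3 score genes, no cardiac spots and no Retnla-rich spots.

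Leaving out a mouse leaves no residual degrees of freedom and gives values with no test. Leaving out 1 mouse at a time, the log2 fold change ran from -0.53 to 2.30 for Eno2, from -0.0079 to 1.96 for Fbln2 and from -0.74 to 2.57 for Prss22, the negative values being those without lung B. With both mice in the fit, each of the 16 calls was lost under 3 (Retnla, of 16 tried) to 11 (Tnnt2, of 15 tried) alternatives. In 341 comparisons of the 23 named genes with the other alternatives no log2 fold change turned, 103 calls were lost and 44 gained. The mean difference in carcinoma neighbours in lung A was 0.07, -0.21 in the top 10% and -0.08 within bins of carcinoma share, and in lung B it was 1.48, 1.20 and 0.86. With n = 2 mice of unlike burden, the contrast in lung A rests on a median of 5 score UMIs per spot or fewer.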
